A study of Homo sapiens with 34 samples.

Results

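The first CD43+ blood cells of H1 cultures were compared with unsorted H1 cells of day 4. H1 is an established line of human embryonic stem cells. Embryoid bodies made from it were attached and given BMP4 and VEGF, and afterwards VEGF alone, with no added haematopoietic cytokine at any time. RNA of all live cells was sequenced on day 4, and on day 6 the cells were sorted by antibody into CD43+ and CD43- populations. The comparison used 6 of the 34 samples of the series, 3 independent cultures of day 4 cells and 3 of day 6 CD43+ cells, and all genes of the deposited table (20255, of which 19788 were tested). The day 6 CD43- cells (3 samples) stand beside the members as the other population of the same day. All of these groups came from the same line and received the same treatment. The day 4 cells were a mixed, unsorted population, whereas the day 6 cells had been detached, stained and sorted. How the day 4 cells were harvested is not given in the sources used here. Day, selection for CD43 and handling therefore cannot be told apart in this design. In such bulk samples, fewer cells of a type and less RNA per cell cannot be told apart either.

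The earliest blood cells of the human embryo form in the yolk sac, where mesoderm gives rise to endothelium and, beside or through it, to primitive red cells, megakaryocytes and macrophages. CD43 (leukosialin, encoded by SPN) is a mucin of the blood cell surface that separates such early blood cells from endothelium, which shares many other markers with them. Primitive red cells carry the embryonic globins epsilon and zeta, and the transcription factors GATA1, TAL1, RUNX1 and SPI1 direct the red, platelet and myeloid branches.

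The values are normalised read counts that the authors corrected for GC content and forced to the same distribution in every sample. The highest value in every sample was therefore 90700 and the sum 17856940, so sequencing depth is unknown. Only the spread between replicates is given as error. For each SE and adjusted p, that spread was pooled over 33 samples of 11 populations. These values therefore depend also on populations outside the comparison, and can be larger or smaller than the compared samples alone would give. Fold changes are on the log2(value + 1) scale, which understates changes of low genes, and levels are compared between samples for 1 gene at a time. Summed values of a list are the exception, and genes with high values weigh most in them. Genes were called at an adjusted p-value below 0.05 (limma, Benjamini-Hochberg) and a fold change above 4, which 14.5% of tested genes passed. Of the tested genes 6.80% were called higher and 7.73% lower in the CD43+ cells, and the median log2 fold change of all tested genes was 0.03. Between the groups, the 3 values did not overlap in 34.3% of genes with the CD43+ values above, and in 31.0% with the CD43+ values below. Pairwise correlations of log2 values over genes were 0.982 to 0.984 within day 4, 0.982 to 0.985 within the CD43+ cells and 0.884 to 0.897 between the groups.

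**Figure D1:**
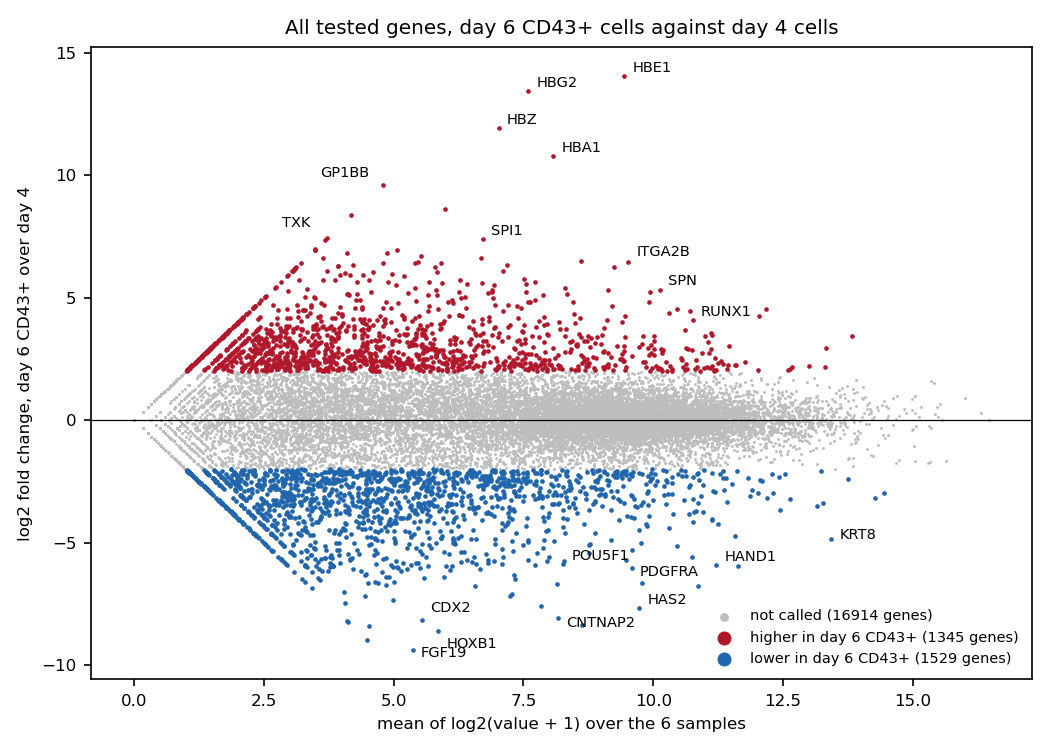
Each point is 1 of the 19788 tested genes, placed by its mean log2(value + 1) over the 6 samples (x axis) and its log2 fold change of day 6 CD43+ over day 4 cells (y axis). Red genes were called higher (1345) and blue genes lower (1529), and the globin genes HBE1, HBG2, HBZ and HBA1 stand above all others.

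The sort marker went with the labels. SPN had values of 176, 152 and 196 on day 4 and of 8780, 6791 and 5979 in the CD43+ cells, a log2 fold change of 5.34 (SE 0.37, adjusted p = 9.23e-12). Its values in the CD43- cells were 28, 19 and 49, below every day 4 value. The later leukocyte marker CD45, encoded by PTPRC, was listed at 0 in all day 4 samples and had values of 8, 1 and 0 in the CD43+ cells, so it had not passed the test (adjusted p = 0.212). By day 9 its mean in CD43+ cells was 693.7 ± 57.6 (SD, n = 3).

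The 4 largest rises of the whole comparison were those of globin genes. All 10 measured globin genes and AHSP, the chaperone of free alpha-globin, were called higher in the CD43+ cells, with non-overlapping values in each, and their median log2 fold change was 8.37 (7.63 without HBD, which was listed at 0 on day 4). HBE1, the embryonic epsilon-globin gene (chr11:5268345-5505617, GRCh38), had values of 2, 6 and 6 on day 4 and reached 90700, the ceiling of the values, in all 3 CD43+ samples. Its log2 fold change of 14.07 (SE 0.67, adjusted p = 1.22e-14) cannot show a rise beyond that ceiling. The CD43- cells had 32, 26 and 36 for this gene.

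HBZ, the embryonic zeta-globin gene (chr16:152687-154503), went from 0, 2 and 2 to 10426, 9485 and 5476, a log2 fold change of 11.94 (SE 0.85, adjusted p = 1.51e-11). The foetal gamma-globin gene HBG2 rose from 2, 1 and 0 to 25836, 20394 and 15842 (log2 fold change 13.45, SE 0.93). HBA1, an alpha-globin gene of embryonic, foetal and adult life, rose from 8, 0 and 28 to 13998, 11498 and 8964 (log2 fold change 10.79, SE 1.34). In each of these 3 genes the lowest CD43+ value was over every day 4 and CD43- value.

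The adult globin genes of the beta cluster were called too. HBB, adult beta-globin, was at 0, 4 and 0 on day 4 and at 110, 104 and 63 in the CD43+ cells (log2 fold change 5.73, SE 0.51, adjusted p = 6.78e-10). HBD, adult delta-globin, was listed at 0 in all day 4 samples and had values of 682, 296 and 178 in the CD43+ cells. HBG1 and HBG2, and likewise HBA1 and HBA2, are near-identical copies, and the annotated span of HBG2 overlaps HBE1, so the split of reads within each pair is uncertain. The smallest rise of the group was that of AHSP, at 0, 2 and 2 on day 4 and 30, 24 and 13 in the CD43+ cells (log2 fold change 3.41, SE 0.60), and its call was lost with a pseudocount of 10 (1.48).

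Genes that make haem had smaller differences. Of 14 genes for haem synthesis and mitochondrial iron import, 2 were called higher and 0 lower, and the median log2 fold change was 0.94. In 12 of the 14 the CD43+ values lay above the day 4 values without overlap. ALAS2, the erythroid enzyme of the committing step, rose from 71, 62 and 150 to 3748, 4028 and 2876 (log2 fold change 5.32, SE 0.51, adjusted p = 2.57e-09). Its values in the CD43- cells were 6, 6 and 3. CPOX, a later enzyme of the pathway, was the other member called, at a log2 fold change of 2.10 (SE 0.19). FECH, which inserts the iron, reached 1.91 and the mitochondrial iron importer SLC25A37 1.73, both under the 4-fold threshold. Of 14 genes for iron uptake, storage and export, 4 were called higher and 0 lower (median 0.70). TFRC, the transferrin receptor CD71, rose from 1536, 1609 and 1398 to 11495, 7476 and 5775 (log2 fold change 2.39, SE 0.25). TFR2, the second transferrin receptor, HMOX1, which breaks haem down, and TF were the others, at 3.82, 3.07 and 2.53.

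Genes of the red cell membrane, surface and enzymes rose in greater number. Of 26 tested, 15 were called higher and 0 lower, and the median was 3.15 (3.11 without SLC4A1). ANK1, the ankyrin that ties the membrane to its skeleton, rose from 34, 54 and 82 to 2178, 1819 and 1792 (log2 fold change 5.15, SE 0.45). RHAG, a glycoprotein of the Rh complex, rose from 586, 652 and 904 to 5898, 7320 and 6242 (log2 fold change 3.20). No CD43+ value of either gene overlapped a day 4 value.

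The anion exchanger SLC4A1 (band 3), a protein of maturing red cells, was listed at 0 on day 4 and in the CD43- cells and had values of 80, 96 and 48 in the CD43+ cells. Genes called higher also included XK (3.82), EPB42 (3.73), SPTB (3.38) and the carbonic anhydrase gene CA1 (4.58). GYPB and GYPE, near-identical copies whose split of reads is uncertain, had log2 fold changes of 4.66 and 3.11. The erythropoietin receptor gene EPOR was not called, with 674, 600 and 654 on day 4 against 867, 942 and 972, a log2 fold change of 0.53 (SE 0.16). Several red cell genes were already measurable on day 4: the RHAG mean was 1.3 ± 0.6 on day 2, then 714.0 ± 167.8, and 6486.7 ± 741.9 in the CD43+ cells (SD, n = 3).

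Of 24 megakaryocyte and platelet genes, 16 were called higher and 0 lower, with a median log2 fold change of 3.09 (2.94 without GP1BB). Both subunits of the platelet fibrinogen receptor rose. ITGA2B (CD41) had 62, 54 and 136 on day 4 and 8678, 5703 and 6697 in the CD43+ cells (log2 fold change 6.47, SE 0.45, adjusted p = 9.99e-12). Its partner ITGB3 (CD61) had 45, 42 and 34 on day 4 and 4610, 2896 and 3859 in the CD43+ cells (log2 fold change 6.50, SE 0.57). In the CD43- cells both remained within 36 to 136.

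The von Willebrand receptor subunits rose as well. GP1BA went from 48, 42 and 78 to 954, 842 and 939 (log2 fold change 4.05, SE 0.39), and GP9 from 3, 2 and 2 to 154, 69 and 30 (log2 fold change 4.40, SE 0.67). GP1BB, which overlaps a septin gene, was listed at 0 on day 4 and had 921, 816 and 606 in the CD43+ cells and 68, 69 and 44 in the CD43- cells. PF4, a chemokine of platelet granules, was at 16, 24 and 13 on day 4 and 138, 120 and 108 on day 6 (log2 fold change 2.76, SE 0.90, adjusted p = 0.0118). Its CD43+ mean was 122.0 ± 15.1 on day 6 and 6684.7 ± 721.3 on day 9, and PPBP, another granule chemokine, had means of 1.3 on day 4 and 2.3 in the day 6 CD43+ cells.

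Genes of these 4 groups that rose together were read for the letters bound by GATA factors, AGATAA or TGATAA, on both strands (TTATCT and TTATCA on the other). They differ in their first letter, so they cannot both match at 1 place. RefSeq windows (GRCh38.p14), from 250 bases before to 50 after a listed start, were found for 24 of the 44 called genes of the 4 groups. Of their 36 windows, 17 (47.2%) held a motif, against 16.3% of all 35116 windows. A gene can have several windows, which are not independent. By gene, 14 of the 24 held a motif in at least 1 window, against 5289 of 27305. By group, the share was 10 of 16 windows for red cell membrane genes, 4 of 16 for megakaryocyte genes, 2 of 2 for haem genes and 1 of 2 for globin genes. A match is a description of the letters and shows no binding.

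A window per group is shown, to let the motif be seen in its setting. Each comes from a called gene with 1 listed start and a motif, and genes of 1 chromosome were left out of the choice. These windows are not always those of the largest rises. All 4 lie on the minus strand and read 5′ to 3′ with the motif in capitals. The delta-globin gene HBD (chr11:5234434-5234733) holds 1 motif, read from the opposite strand, which begins 78 bases before the start. ALAS2 (chrX:55030928-55031227) holds 1, also on the opposite strand, 127 bases before it. EPB42, which encodes a protein of the red cell membrane skeleton (chr15:43220969-43221268), holds 2, which begin 208 and 61 bases before the start. GP6, the platelet collagen receptor gene (chr19:55038215-55038514), holds 1 at 177 bases before it.
HBD: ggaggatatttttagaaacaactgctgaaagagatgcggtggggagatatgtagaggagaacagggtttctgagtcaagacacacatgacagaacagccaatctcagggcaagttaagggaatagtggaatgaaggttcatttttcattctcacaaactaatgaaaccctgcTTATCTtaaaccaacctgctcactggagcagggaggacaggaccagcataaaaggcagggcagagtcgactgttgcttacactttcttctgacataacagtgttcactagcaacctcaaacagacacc
ALAS2: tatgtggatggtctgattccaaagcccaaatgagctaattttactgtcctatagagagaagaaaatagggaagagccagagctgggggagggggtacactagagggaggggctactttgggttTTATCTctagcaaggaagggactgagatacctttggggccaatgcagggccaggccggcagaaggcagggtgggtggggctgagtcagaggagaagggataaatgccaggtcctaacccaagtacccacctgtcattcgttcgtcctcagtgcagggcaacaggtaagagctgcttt
EPB42: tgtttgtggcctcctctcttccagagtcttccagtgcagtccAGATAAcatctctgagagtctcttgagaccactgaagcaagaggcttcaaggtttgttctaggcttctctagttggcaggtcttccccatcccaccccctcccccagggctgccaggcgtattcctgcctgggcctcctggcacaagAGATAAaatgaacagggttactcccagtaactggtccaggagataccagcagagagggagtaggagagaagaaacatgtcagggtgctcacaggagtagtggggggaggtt
GP6: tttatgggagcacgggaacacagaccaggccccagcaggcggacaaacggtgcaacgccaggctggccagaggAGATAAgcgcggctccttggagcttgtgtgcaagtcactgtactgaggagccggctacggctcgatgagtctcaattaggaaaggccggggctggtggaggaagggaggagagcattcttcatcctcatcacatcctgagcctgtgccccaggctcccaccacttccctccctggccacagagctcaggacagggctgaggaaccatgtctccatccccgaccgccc
The genes behind these windows differed strongly between the groups. EPB42 was at 8, 15 and 14 on day 4 and 171, 212 and 136 in the CD43+ cells. GP6 was at 1, 1 and 4 on day 4 and 147, 169 and 188 in the CD43+ cells (log2 fold change 5.95, SE 0.51).

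Among transcription factors, those of the blood program differed in the values they already had in the unsorted day 4 cells. Of 10 blood factors named by the study, 7 were called higher and 0 lower, and in all 10 the CD43+ values lay above the day 4 values (median log2 fold change 2.94). The study chose these 10 on these samples, so their direction is not independent evidence. SPI1 (PU.1), the factor of the myeloid branch (chr11:47354860-47378576), had 10, 6 and 6 on day 4 and 1553, 1247 and 1332 in the CD43+ cells, a log2 fold change of 7.40 (SE 0.90, adjusted p = 1.48e-07). RUNX1, needed for blood to emerge from endothelium, rose from 345, 486 and 444 to 6910, 6575 and 7899 (log2 fold change 4.08, SE 0.30, adjusted p = 2.99e-11). Neither gene's CD43- values (5 to 10 for SPI1 and 322 to 765 for RUNX1) reached the CD43+ range.

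GATA1, the master factor of red cells and megakaryocytes, went from 166, 140 and 203 to 2865, 2616 and 2677 (log2 fold change 4.01, SE 0.62). The repressor GFI1B rose by a log2 fold change of 4.83 (SE 0.60) and its relative GFI1 by 2.19 (SE 0.47). MYB, a factor of progenitor growth, rose from 550, 550 and 608 to 4504, 4652 and 4148 (log2 fold change 2.96, SE 0.53), and LMO2, the bridging subunit of the TAL1 complex, by 2.91 (SE 0.27). TAL1 itself was at 1837, 2431 and 1856 on day 4 and at 6335, 5979 and 5760 in the CD43+ cells, a log2 fold change of 1.57 (SE 0.42) that was under the 4-fold threshold. GATA2, a factor of early progenitors, had 6242, 5777 and 6000 on day 4. In the CD43+ cells it had 10075, 9886 and 9230 (log2 fold change 0.70, adjusted p = 0.0594). With limma fitted on the 6 compared samples alone, the adjusted p of GATA2 was below 0.05. Its fold change was under the 4-fold threshold in both fits.

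The course over earlier days shows where these factors stood. The mean of GATA2 was 17.7 ± 5.5 on day 0 and 934.7 ± 42.1 on day 2, before the 6006.3 ± 232.6 of day 4. TAL1 was at 15.0 ± 1.7 on day 2 and 2041.3 ± 337.6 on day 4, when GFI1 had reached 710.7 ± 83.3. SPI1, at 16.7 ± 3.5 on day 2 and 7.3 ± 2.3 on day 4, had not risen by then (all SD, n = 3).

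Of 23 other blood and erythroid factors, 5 were called higher and 1 lower (median 0.63). MEF2C, shared by endothelium and megakaryocytes, rose from 54, 64 and 76 to 2638, 1587 and 1590 (log2 fold change 4.85, SE 0.31), and was 2050, 1098 and 469 in the CD43- cells. NFE2, a factor of globin and platelet genes, rose from 458, 374 and 440 to 3268, 3002 and 3123 (log2 fold change 2.89). IKZF1 (Ikaros) passed closely, at 2.05 (SE 0.63, adjusted p = 0.00818), and was not called without day 4 replicate 3 (1.93) or CD43+ replicate 1 (1.97). IKZF3 reached 3.25. TRIM58 (3.40), also counted in this list, encodes a ubiquitin ligase and not a transcription factor. KLF1, the activator of red cell genes, had 821, 822 and 894 on day 4 and 3108, 2804 and 2530 in the CD43+ cells, at 1.73 under the threshold. SOX6, a regulator of definitive red cells, fell from 408, 315 and 602 to 90, 85 and 64 (log2 fold change -2.42, SE 0.33) and was 3036, 2918 and 4432 in the CD43- cells.

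**Figure D2:**
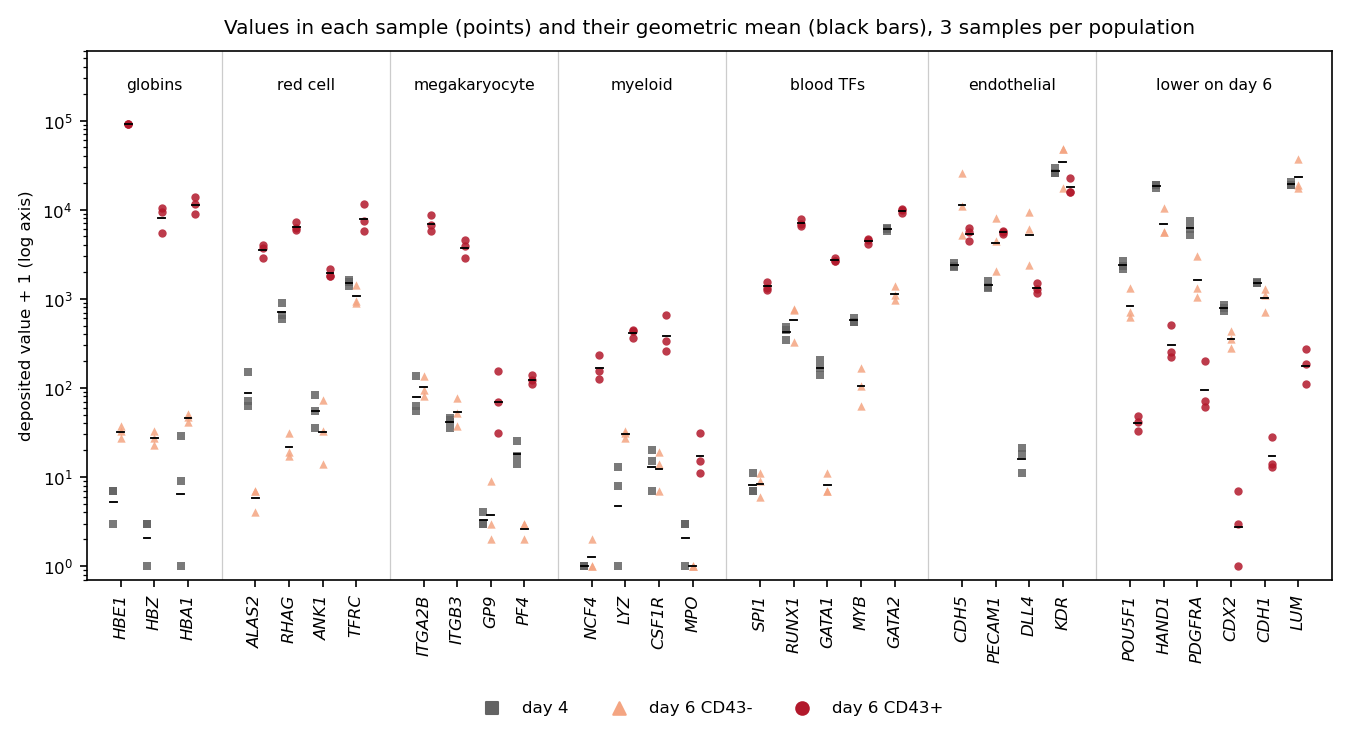
Deposited value + 1 (log axis) of 30 genes in each of the 3 samples of day 4 (grey squares), day 6 CD43- (orange triangles) and day 6 CD43+ cells (red circles), with the geometric mean as a black bar. Globin, red cell, megakaryocyte and most transcription factor genes have all CD43+ points above both other populations, whereas KDR and DLL4 have their highest points in CD43- cells.

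Myeloid genes were higher too, at low values. Of 24 granulocyte, monocyte and macrophage genes, 10 were called higher and 0 lower (median 1.70, and 1.79 without the members listed at 0). NCF4, a subunit of the phagocyte oxidase, was listed at 0 in all day 4 samples and had 235, 154 and 124 in the CD43+ cells. The lysozyme gene LYZ rose from 7, 0 and 12 to 448, 436 and 365 (log2 fold change 6.47, SE 1.04), and the macrophage growth factor receptor gene CSF1R from 6, 19 and 14 to 658, 258 and 333 (log2 fold change 4.91, SE 0.75). TYROBP and FCER1G, adaptors of myeloid receptors, reached 5.92 and 5.01.

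Other members of the list were at or near 0. MPO, myeloperoxidase, had 2, 2 and 0 on day 4 and 30, 14 and 10 in the CD43+ cells (log2 fold change 3.05, adjusted p = 0.0126). Without day 4 replicate 3, or without CD43+ replicate 1, its adjusted p was 0.0668 or 0.0585. ELANE, S100A8 and C1QA were listed at 0 in every day 4 and CD43+ sample, and CD14 had 4, 10 and 12 against 6, 10 and 10 (adjusted p = 0.958).

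Of 13 mast cell, basophil and eosinophil genes, 4 were called higher and 0 lower (median 1.02, and 1.28 without the members listed at 0). PRG2, the eosinophil major basic protein gene, had 0, 14 and 10 on day 4 and 146, 71 and 58 in the CD43+ cells (log2 fold change 3.96, SE 1.35, adjusted p = 0.0154). The adjusted p of PRG2 was 0.123 without day 4 replicate 1 and 0.0569 without CD43+ replicate 1. KIT, the stem cell factor receptor of progenitors and mast cells, had 346, 327 and 359 against 464, 374 and 222 (log2 fold change -0.03, adjusted p = 0.971). Of 11 lymphoid genes, 4 were called higher (median 1.05, and 0.41 without the members listed at 0). CD2 was listed at 0 on day 4 and had 24, 8 and 8 in the CD43+ cells, and CD7 went from 30, 24 and 50 to 300, 288 and 267 (log2 fold change 3.07).

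Genes for leukocyte adhesion and movement rose broadly, with 13 of 26 called higher and 1 lower (median 2.01, and 2.06 without the member listed at 0). PLEK, a kinase substrate of platelets and leukocytes, rose from 0, 4 and 0 to 325, 84 and 86 (log2 fold change 6.29, SE 1.01). The integrin gene ITGA4 (4.22), the cytoskeletal signalling genes ARHGDIB (4.84), VAV1 (4.03), WAS (4.23) and RAC2 (2.54), and the surface genes CD33 (4.31) and CD47 (2.41) were also called. CXCR4, a chemokine receptor gene, was the member called lower, at 342, 325 and 286 on day 4 against 416, 72 and 14 (log2 fold change -2.05, adjusted p = 0.0141). The groups overlap, and without CD43+ replicate 3 the log2 fold change was -0.87 (adjusted p = 0.231). The call was also lost without day 4 replicate 1, at -1.99. With limma fitted on the 6 compared samples alone it was lost too, with an adjusted p above 0.05.

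Some endothelial genes rose in both day 6 populations. Of 30 tested, 9 were called higher and 0 lower in the CD43+ cells (median 1.14), and 2 had lower values there without overlap. In the CD43- cells against the same day 4 samples 14 were called higher (median 1.79), where 7.71% of all genes were called, 4.94% higher and 2.77% lower. CDH5, the VE-cadherin of endothelial junctions, had 2330, 2512 and 2248 on day 4, 5644, 4481 and 6144 in the CD43+ cells and 25876, 10844 and 5254 in the CD43- cells. The log2 fold change in the CD43+ cells was 1.19 (SE 0.37, adjusted p = 0.00876), under the 4-fold threshold.

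CLDN5, a tight junction gene, gave the largest endothelial rise, from 2, 3 and 8 to 436, 274 and 185 (log2 fold change 5.89, SE 0.62), and stood at 1821, 898 and 406 in the CD43- cells. PECAM1 (CD31) had 1362, 1304 and 1590 on day 4 and 5704, 5314 and 5641 in the CD43+ cells, a log2 fold change of 1.97 (SE 0.34) just under the threshold. It passed at 2.06 without day 4 replicate 3 and passed without CD43+ replicate 2. CD34 (1.02) and TEK (-0.17) were not called. The CD43- samples varied widely, with summed values of the list from 69005 to 315579, against 58218 to 67314 on day 4 and 74637 to 96567 in the CD43+ cells.

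The VEGF receptor genes did not follow the blood genes. KDR (VEGFR2) had 25836, 29000 and 25836 on day 4 and 15842, 15842 and 22812 in the CD43+ cells, with no overlap between the groups, a log2 fold change of -0.59 and an adjusted p of 0.173. FLT1 (VEGFR1) had 4323, 5396 and 4538 against 7622, 5186 and 9227 (adjusted p = 0.139). Of 9 VEGF receptors, co-receptors and ligands, 0 were called higher and 1 lower (median -0.95), the ligand gene VEGFC, from 32, 38 and 53 to 5, 6 and 0.

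Among Notch genes the largest rise was that of an arterial ligand. Of 15 tested, 5 were called higher and 0 lower (median 1.20), 3 had CD43+ values below the day 4 values without overlap, and in the CD43- cells 9 were called higher (median 2.34). DLL4 had 17, 20 and 10 on day 4 and 1518, 1168 and 1296 in the CD43+ cells (log2 fold change 6.36, SE 0.50, adjusted p = 9.45e-11). Its CD43- values lay above these, at 9493, 6068 and 2370, but the difference between the day 6 populations was not called. The targets HES4 (5.79), NRARP (2.78) and HES1 and the receptor NOTCH4 (2.55) were the others. HEY1, an arterial target, had 727, 506 and 525 in CD43+ and 5704, 3896 and 1882 in CD43- cells and was called lower in the first than in the second (log2 fold change -2.58), a contrast in which 4.68% of genes were called higher and 7.85% lower. No Notch gene was called higher in that contrast.

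**Figure D3:**
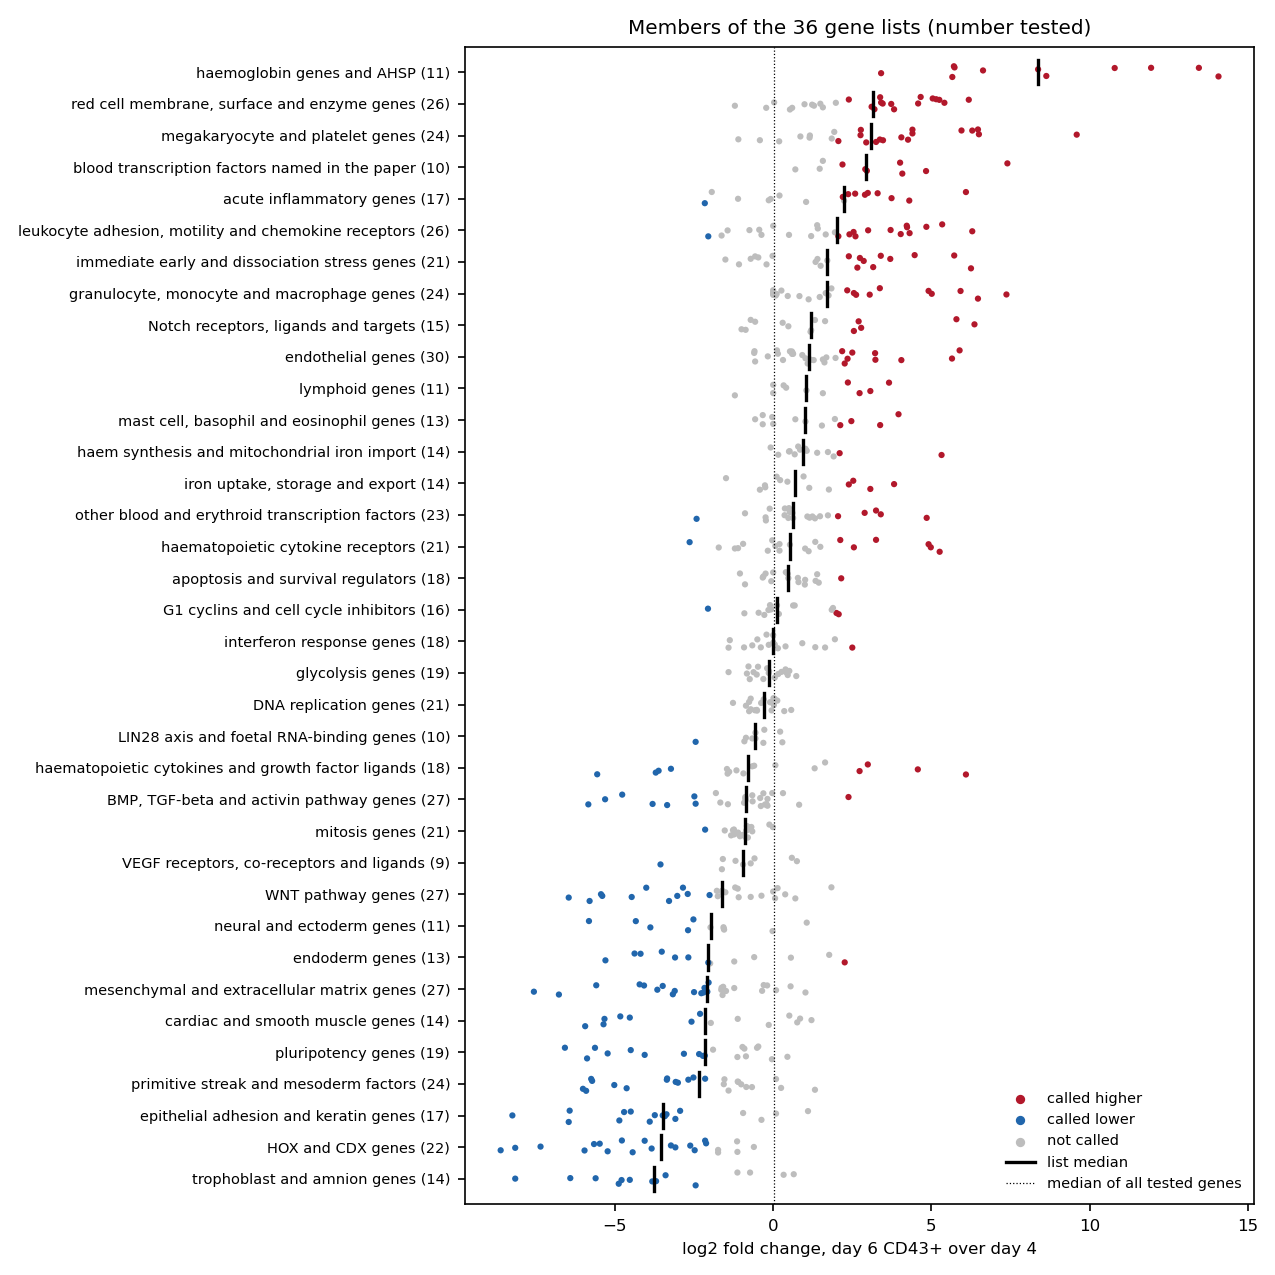
Log2 fold change of day 6 CD43+ over day 4 cells (x axis) for the tested members of 36 gene lists (rows, ordered by median), with red for genes called higher, blue for lower and grey for not called. Black bars are list medians, from 8.37 for globin genes and AHSP to -3.76 for trophoblast and amnion genes, and the dotted line is the median of all tested genes, 0.03.

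Genes of the primitive streak and mesoderm fell. Of 24 tested, 13 were called lower and 0 higher (median -2.34, and -2.52 without the member listed at 0). PDGFRA, a receptor of paraxial and cardiac mesoderm, fell from 7481, 5126 and 6066 to 60, 71 and 198 (log2 fold change -6.01, SE 0.42, adjusted p = 1.36e-11). HAND1, a factor of extra-embryonic and lateral mesoderm, fell from 18763, 17356 and 18763 to 220, 254 and 502 (log2 fold change -5.91, SE 0.48). FOXF1, a factor of splanchnic mesoderm, fell by 5.75 (SE 0.35) on the log2 scale.

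The factors T, EOMES, MIXL1 and MESP1 had higher means on day 2 than on day 4. T (brachyury) had a mean of 12678.3 ± 667.8 on day 2 and values of 147, 119 and 68 on day 4, and in the CD43+ cells was at 5, 2 and 1 (log2 fold change -5.02, SE 0.66). EOMES, with a mean of 3967.0 ± 373.5 on day 2 and values of 95, 76 and 60 on day 4, was at 2, 1 and 4 in CD43+ and at 2, 4 and 1 in CD43- cells. APLNR, the apelin receptor of mesoderm progenitors, fell from 37178, 29015 and 29015 to 2588, 2288 and 4899 (log2 fold change -3.36). MIXL1, at a mean of 8589.0 ± 273.2 on day 2 and values of 126, 148 and 104 on day 4, was called lower at -2.68 (adjusted p = 0.019), but not without day 4 replicate 2 (adjusted p = 0.0524) or CD43+ replicate 3 (adjusted p = 0.0583). MESP1, an early mesoderm factor with a mean of 679.3 ± 64.0 on day 2, was at 14, 17 and 2 against 12, 4 and 20.

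Pluripotency genes still present on day 4 were lower in the CD43+ cells. Of 19 tested, 10 were called lower and 0 higher (median -2.16, and -2.03 without the member listed at 0). POU5F1 (OCT4) had 2618, 2328 and 2176 on day 4, 40, 47 and 32 in the CD43+ cells and 712, 1328 and 618 in the CD43- cells (log2 fold change of CD43+ cells -5.88, SE 0.55). SOX2 was low already, at 16, 49 and 10 against 3, 1 and 8 (log2 fold change -2.34, adjusted p = 0.00849). Without day 4 replicate 2, its adjusted p was 0.0734, and without CD43+ replicate 2 it was 0.0641. The RNA-binding factor LIN28B had 7911, 7492 and 8278 on day 4 and 4155, 4294 and 4613 in the CD43+ cells, at -0.86 under the threshold. Of 10 genes of the LIN28 axis, HMGA2 was the 1 called lower, from 10844, 11204 and 8281 to 1684, 1786 and 2028 (log2 fold change -2.45, SE 0.43).

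**Figure D4:**
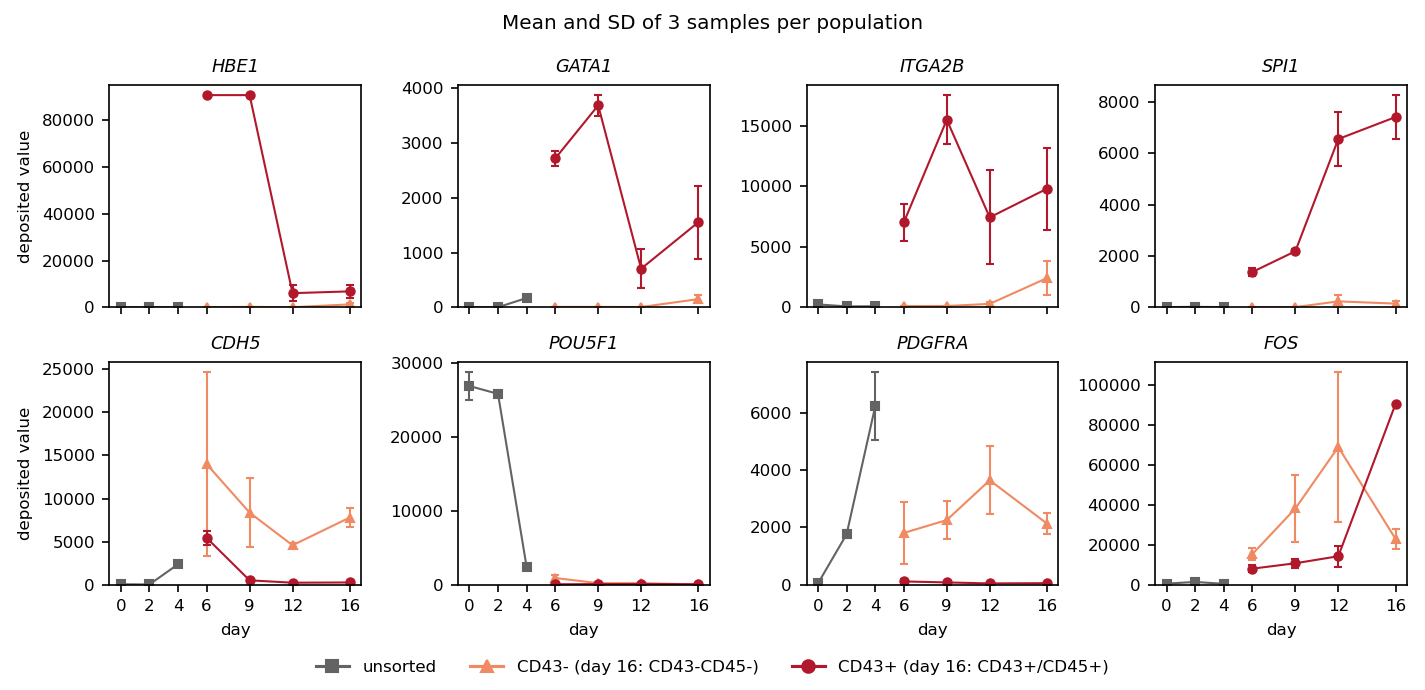
Mean deposited value (y axis, linear) over days 0 to 16 (x axis) of 8 genes in unsorted cells (grey), CD43- cells (orange) and CD43+ cells (red), with bars for the SD of 3 samples. HBE1, GATA1, ITGA2B and SPI1 step up between day 4 and the day 6 CD43+ cells, POU5F1 and PDGFRA drop, and FOS is higher in both sorted day 6 populations than on day 4.

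HOX and CDX genes, which set position along the body axis, fell nearly as a block. Of 22 tested, 17 were called lower and 0 higher, all 22 had CD43+ values below the day 4 values, and the median was -3.53 with or without the members listed at 0. CDX2, an activator of HOX genes (chr13:27962137-27971139), fell from 778, 731 and 848 to 0, 6 and 2 (log2 fold change -8.15, SE 0.55, adjusted p = 5.42e-12). HOXB1, the anterior end of the HOXB cluster (chr17:48528526-48530997), fell from 1423, 795 and 1310 to 0, 4 and 4 (log2 fold change -8.61, SE 0.75). HOXA9, a factor of definitive blood progenitors, fell from 378, 422 and 409 to 4, 2 and 0 (log2 fold change -7.35, SE 0.75).

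In the CD43- cells these genes stood nearer to day 4, with 0 of the 22 called higher and 2 lower against day 4 (median -0.69). HOXA9 was 212, 251 and 151 and CDX2 282, 350 and 438 there. HOXB4, used to expand blood progenitors, changed least in the CD43+ cells, from 622, 597 and 652 to 402, 390 and 432 (log2 fold change -0.61, adjusted p = 0.094). Neighbouring HOX genes overlap each other and antisense genes, and counting by strand is not stated, so single members are uncertain.

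Signalling genes of the mesoderm were lower as well. Of 27 WNT pathway genes, 11 were called lower and 0 higher (median -1.61). WNT5A, a non-canonical ligand, fell from 4156, 3788 and 4082 to 188, 152 and 203 (log2 fold change -4.47), the target AXIN2 from 994, 866 and 864 to 119, 109 and 151 (log2 fold change -2.85), and the ligand gene WNT8A from 84, 110 and 71 to a listed 0 in all 3 samples. NKD1, an inhibitor induced by the pathway, fell in both day 6 populations, with log2 fold changes of -3.03 in the CD43+ and -2.30 in the CD43- cells. Of 27 BMP, TGF-beta and activin genes, 7 were called lower and 1 higher (median -0.87). BMP4, also an added factor at the start of the culture, fell from 4938, 4938 and 4758 to 112, 118 and 136 (log2 fold change -5.31, SE 0.37). BMP5 (-5.84) and the antagonist NOG (-4.77) fell too, while the target ID1 had 1226, 1272 and 1079 against 947, 851 and 1448 (adjusted p = 0.449).

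Markers of other cell types that an unsorted culture may hold were also listed. Of 17 epithelial adhesion and keratin genes, 13 were called lower and 0 higher (median -3.49, and -3.46 without the member listed at 0). CDH1, E-cadherin, fell from 1556, 1492 and 1492 to 13, 27 and 12 (log2 fold change -6.46, SE 0.40), ESRP1, an epithelial splicing factor, from 319, 346 and 247 to a listed 0, and KRT8 from 48061, 90700 and 48061 to 1448, 2012 and 2960. The CD43- cells kept all of these, at 708, 1292 and 1110 for CDH1 and at or above 48061 for KRT8.

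Of 27 mesenchymal and extracellular matrix genes, 15 were called lower and 0 higher (median -2.08). LUM (lumican) fell from 18772, 18772 and 20424 to 110, 182 and 274 (log2 fold change -6.77), PRRX1, a factor of limb and body wall mesenchyme, from 3282, 2602 and 3576 to 11, 17 and 20 (log2 fold change -7.56), and HAS2, the hyaluronan synthase, from 12018 in all 3 samples to 34, 46 and 128 (log2 fold change -7.65). The matrix protein POSTN fell from 372, 162 and 696 to 64, 62 and 56 and was 10084, 10840 and 20424 in the CD43- cells. COL1A1 and COL1A2 stood apart, since COL1A1 had 22812, 22812 and 37166 on day 4 and 18751, 18751 and 37166 in the CD43+ cells (adjusted p = 0.683). By day 9 the mean of COL1A1 in CD43+ cells was 2112.7 ± 1313.8 (SD, n = 3), against 24889.3 ± 10631.9 on day 6. COL3A1 was the most uneven of the list, at 1952, 5706 and 25870 in the CD43+ cells. Summed over the list, the values were 380408 to 498793 on day 4, 135979 to 260349 in the CD43+ cells and 663921 to 702211 in the CD43- cells.

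Of 14 trophoblast and amnion genes, 10 were called lower and 0 higher (median -3.76, and -4.18 without the members listed at 0), with TFAP2C falling from 640, 578 and 516 to 4, 6 and 8. The trophoblast hormone gene CGA did not exceed 6 in any day 4 sample, and GATA3 was not called (log2 fold change -0.73). Of 14 cardiac and smooth muscle genes, 7 were called lower (median -2.14), among them TNNT2, from 396, 416 and 392 to 6, 8 and 14, and ACTC1, from 22836, 25862 and 25862 to 282, 546 and 422. Of 13 endoderm genes, 7 were called lower and 1 higher (median -2.05, and -2.97 without CD43+ replicate 1). FOXA2 fell from 106, 146 and 75 to 10, 3 and 2, and AFP from 50, 62 and 62 to 2, 4 and 8, whereas TTR was called higher on values of 0, 3 and 0 against 6, 6 and 8. TTR was 85, 227 and 380 in the CD43- cells, and its call was lost without day 4 replicate 1 or 3, at a log2 fold change of 1.93 in each. Of 11 neural and ectoderm genes, 5 were called lower (median -1.98, and -1.77 without the member listed at 0), with OTX2 the largest (-5.82) and PAX6 not called, at 28, 28 and 13 against 34, 18 and 16.

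No haematopoietic cytokine was added to these cultures, so their own ligands and receptors were listed. Of 21 receptor genes, 6 were called higher and 1 lower (median 0.53). IL3RA rose from 1, 6 and 3 to 221, 126 and 110 (log2 fold change 5.26, SE 0.69) and the shared beta chain CSF2RB from 25, 20 and 17 to 965, 594 and 542 (log2 fold change 4.98, SE 0.51). LIFR, the receptor of leukaemia inhibitory factor, fell from 4380, 5045 and 3350 to 778, 524 and 744. IL3RA was 506, 260 and 83 in the CD43- cells, with no called difference between the day 6 populations.

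Of 18 ligand genes, 4 were called higher and 4 lower (median -0.80, and -0.94 without the member listed at 0). IL1B was listed at 0 on day 4 and had 122, 34 and 72 in the CD43+ cells, IL16 rose from 26, 64 and 25 to 962, 774 and 816, and ANGPT1, the ligand of TEK, from 66, 72 and 58 to 641, 350 and 371. IGF2 fell from 18751, 17338 and 22812 to 1909, 1456 and 3241 and IGF1 from 96, 97 and 88 to 1 in each sample. KITLG, the ligand of KIT, had 307, 348 and 267 against 180, 82 and 92 (log2 fold change -1.46) and was 1178, 634 and 518 in the CD43- cells. Of 17 acute inflammatory genes, 9 were called higher and 1 lower (median 2.24, and 2.20 without the members listed at 0). The median was 1.56 without CD43+ replicate 1 and 1.03 with a pseudocount of 10. CXCL2 (4.30), CCL5 (3.74), PTGS2 (3.30) and ICAM1 (2.20) were called higher in both day 6 populations. No other member was called higher in the CD43- cells. Members called higher only in the CD43+ cells included the one with the largest rise, at 6.09. Between the day 6 populations, 2 of the 17 were called higher in CD43+ cells and 1 lower, against 4.68% and 7.85% of all genes. TNFAIP3, an inhibitor of NF-kappaB signalling, fell from 1330, 1248 and 1416 to 240, 338 and 323.

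Few genes of growth and metabolism were called. None of 21 DNA replication genes was called (median -0.30). In 11 of them the CD43+ values lay below the day 4 values without overlap, and in 2 above. MCM2, a subunit of the replicative helicase and the member with the highest log2 fold change, had 3426, 3544 and 3247 against 5318, 5254 and 4615 (log2 fold change 0.57, adjusted p = 0.0602). Of 21 mitosis genes, CDK1 was the 1 called lower, from 4480, 4116 and 3324 to 948, 1000 and 730 (log2 fold change -2.15, SE 0.25), and the median was -0.88, with non-overlapping lower values in 19 of 21. MKI67 had 5779, 5478 and 6002 against 5635, 5190 and 5034 (adjusted p = 0.674).

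Among 16 genes of the G1 phase, the cyclin genes moved apart. CCND3, the D-type cyclin of blood cells, rose from 1122, 1116 and 1219 to 4478, 4478 and 4900 (SE of the log2 fold change 0.17) and CCND1 fell from 5188, 6460 and 4504 to 1236, 1011 and 1674 (log2 fold change -2.06, SE 0.28). Both lie at the 4-fold threshold. CCND3 was at 1.98, 1.98 and 1.96 without day 4 replicates 1 and 2 and CD43+ replicate 3, and CCND1 at -1.92 and -1.89 without day 4 replicate 2 and CD43+ replicate 2, each then uncalled. CDKN1C, an inhibitor of the cycle, rose from 1096, 1102 and 1280 to 4894, 4652 and 5032 (log2 fold change 2.07, SE 0.25). Of 19 glycolysis genes 0 were called (median -0.14), of 18 interferon response genes 1, IFIT3, was higher (median 0.00), and of 18 apoptosis regulators 1, BIRC3, was higher (median 0.47). With a pseudocount of 10 neither was called, at 1.88 for IFIT3 and 0.89 for BIRC3.

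Immediate early genes, which respond within minutes to stimulation and to cell detachment, were higher in both sorted populations. Of 21 such genes, 10 were called higher in the CD43+ cells and 0 lower (median 1.71), and 13 in the CD43- cells. FOS rose from 276, 292 and 557 to 7132, 7007 and 9860 (log2 fold change 4.47, SE 0.61) and was 13287, 13963 and 18714 in the CD43- cells. FOSB rose from 50, 50 and 130 to 3940, 4476 and 8504, and JUN, DUSP1, JUNB and JUND were called in both populations. Summed, the list ranged from 22894 to 24006 on day 4, 55123 to 75868 in CD43+ and 87939 to 106105 in CD43- cells. Their part in the other results was not tested. HSPA1A, a heat shock gene, had 2243, 2243 and 2234 against 1456, 1284 and 2243 (adjusted p = 0.219), and EGR1 was not called (adjusted p = 0.776).

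Fewer of the higher calls than of the tested genes were protein-coding. Protein-coding genes made up 82.5% of tested genes, 65.9% of genes called higher and 85.9% of those called lower. Of 1596 antisense genes 15.0% were called higher and 6.02% lower (median 0.53, and 0.00 in the CD43- cells), and of 1380 lincRNA genes 12.7% higher and 7.25% lower (median 0.43). Among 45 histone cluster genes, a family singled out after its values were seen, 14 were called higher and 0 lower (median 1.61), against a median of -0.20 in the CD43- cells. Library preparation, RNA quality and their part in these shifts were not tested.

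Among the largest changes outside the lists, TXK, a kinase of lymphoid and myeloid cells, was listed at 0 on day 4 and had 237, 140 and 158 in the CD43+ cells. The non-coding genes with the largest rises were RAET1E-AS1, listed at 0 on day 4 and at 110, 158 and 115 in the CD43+ cells (208, 171 and 67 in CD43- cells), RASSF1-AS1, from 0, 8 and 0 to 189, 182 and 134, and the host locus MIR142, from 2 in each sample to 421, 460 and 271. The last value is that of the annotated gene and its overlapping antisense gene, not of the mature miRNA.

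FGF19, a secreted growth factor (chr11:69698232-69704642), gave the largest fall of all, from 1120, 1221 and 890 to 0, 0 and 3 (log2 fold change -9.39, SE 0.75, adjusted p = 1.04e-10). RGS4, a brake on G protein signals, fell from 7165, 5914 and 8977 to 15, 20 and 30, CNTNAP2, an adhesion gene known from neurons, from 5043, 4080 and 5136 to 10, 22 and 20, and CD300E, an immune receptor gene, from 462, 350 and 469 to 1, 0 and 0. NKX1-2 and RP11-73M18.2 were listed at 0 in the CD43+ cells, from 360, 317 and 224 and from 454, 602 and 462 on day 4. Falls among the non-coding genes were led by CTB-158E9.1 (-6.63), RP11-510C10.3, which was listed at 0 in the CD43+ cells, and FENDRR (-6.05), the neighbour of FOXF1, which kept 127, 138 and 314 in the CD43- cells.

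Samples that neither side of the comparison used show how far the same genes separate blood from non-blood cells later. Of the 1345 genes called higher, 588 (43.7%) were called higher in day 9 CD43+ than in day 9 CD43- cells, where 8.65% of all genes were, and 61 were called lower. These 588 were 34.4% of the 1711 genes called higher on day 9. Of the 1529 called lower, 999 (65.3%, or 39.3% of 2541) were also lower in day 9 CD43+ cells, against 12.8% of all genes, and 26 were higher. DLL4, CLDN5 and CLEC14A, called higher on day 6, were among those lower on day 9, with log2 fold changes of -5.70, -5.55 and -5.54 there, while HBE1, ITGA2B, SPI1 and GATA1 were higher, by 9.04, 7.21, 8.15 and 8.92. The median log2 value of the 1345 genes was 2.65 on day 4 and 5.95 in the day 6 CD43+ cells, a step fixed by how they were called. In the day 9 CD43+ cells it was 6.42, and in the CD43- cells 4.15 on day 6 and 4.13 on day 9.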

How the data were processed

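RNA of 34 samples was sequenced, and 6 of them (day 4 and day 6 CD43+ H1 cells) were compared. Per the labels and the study's methods, reads were aligned with Bowtie2 to Ensembl transcripts and quantified with RSEM, and the counts were normalised for GC content with EDASeq. The submitters' processing notes also name bcl2fastq, STAR 2.7 and hg38. The deposited values are treated here as a score, because they are rounded and follow 1 distribution in every sample, so the main test was not a count test. Which of 2 sequencing providers handled each sample is not given in the sources used here.

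Log2(value + 1) was fitted with limma 3.58.1 in R 4.3.3 (moderated test with a trend, two-sided, 33 samples of 11 populations, 3 replicates each, no block), after removal of genes that reached 10 in fewer than 3 samples. P-values were adjusted by Benjamini-Hochberg over all tested genes. A single 3 against 3 exact permutation test cannot go below p = 0.1. Scripts were tested on simulated data. Tables and figures were made with Python 3.11.15, numpy 2.4.6, pandas 2.3.3, scipy 1.17.1 and matplotlib 3.10.9, and gene types follow GENCODE 29.

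The members and the 36 gene lists were chosen with earlier results of these data known. Genes were named by a rule: the 10 largest rises and falls among called protein-coding genes without overlap between the groups, the 3 largest of other gene types, marked lead members of each list, and the called member of each list with the largest rise and fall. Other genes named were chosen after their values were seen. Listed genes outside the table were not analysed here, and some list members are not reported here. Alternatives were other pseudocounts, filters, scalings, thresholds, sample sets, a replicate block and leaving out each sample.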

Additional observations from a re-analysis of the deposited data

Results flagged for a closer look

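Of the 148 named genes, 11 changed from day 4 in opposite directions in the 2 day 6 populations, with both changes called. Genes not reported here were left out of the 11 but were not removed from the 148. Named genes were chosen in part by their change from day 4. The share over all tested genes is not given here, so the count has no background. The values are the log2 difference of CD43+ over CD43- cells, with the limma adjusted p (Benjamini-Hochberg) of that difference itself. Genes were picked by these 2 opposite calls and by that adjusted p being below 0.05. The adjusted p is therefore not independent evidence of a difference. Both populations were set against the same day 4 samples. Groups of 3 samples were too small for a test of single outlying samples.

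Genes of the red cell and megakaryocyte branches were higher than on day 4 in CD43+ cells and lower in CD43- cells. The difference was 9.24 for ALAS2 (adjusted p = 1.06e-13) and 5.55 for PF4 (adjusted p = 1.1e-05). Transcription factors in the same position were GATA1 at 8.38 (adjusted p = 2.37e-11), NFE2 at 6.50 (adjusted p = 2e-12), MYB at 5.42 (adjusted p = 3.48e-09) and IKZF1 at 4.45 (adjusted p = 1.69e-06). The day 4 call of IKZF1 was lost without day 4 replicate 3 or without CD43+ replicate 1. The sort marker gene SPN differed by 7.85 (adjusted p = 5.46e-15). Its product was the basis of the sort, so this direction is not independent evidence.

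The opposite order held for 4 genes. The difference was -7.73 for the matrix gene POSTN (adjusted p = 3.9e-15), -5.85 for the endoderm gene AFP (adjusted p = 3.11e-08), -5.41 for SOX6 (adjusted p = 5.95e-13) and -4.15 for CXCR4 (adjusted p = 1.44e-05), where the day 4 comparison of CXCR4 depended on single samples.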

How the results depend on the processing

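The number of called genes and the size of list medians depended on how low values were treated. Of 2874 calls (1345 higher, 1529 lower), 1495 were made with a pseudocount of 10 (633 higher, 862 lower), and 1909 (819 higher) with a filter at 100. A fold change above 2 gave 5906 (3018 higher, 2888 lower), and protein-coding genes alone 887 higher. Higher calls made up 46.8% of calls, and 40.3% to 51.1% over all alternatives. Leaving out 1 sample gave 2817 to 2912 calls, 1311 to 1350 higher and 1500 to 1562 lower. Other settings moved the counts by less than 1.5 times.

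Replicate numbers did not pair the samples: deviations of same-numbered samples correlated at 0.007, 0.056 and 0.027, and of others at -0.068 to 0.044. The fit with a replicate block called 2873 genes (1346 higher, 1527 lower), and 2718 with the block on the 6 samples alone.

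Of 148 named genes, 17 lost their call under some alternative, 12 of them with a pseudocount of 10 (AHSP, BIRC3, CCND3, CD2, CXCL8, CXCR4, IFIT3, INHBB, MPO, SOX2, TTR and VEGFC), and 2 gained one. Of 36 list medians, 15 moved by more than the spread between replicates. With pseudocounts of 0.1 and 10, the median went to 10.86 and 5.09 for globin genes, -4.90 and -1.45 for trophoblast genes, -4.81 and -2.11 for HOX and CDX genes, -2.85 and -1.11 for neural genes and 2.63 and 1.03 for acute inflammatory genes. With a pseudocount of 10 the pluripotency median was -1.19 and the megakaryocyte median 2.25. Sign changed only in uncalled values: the median of the cytokine ligand list became 0.07 with the filter at 100, and PCNA -0.01 with median-of-ratios scaling. Over the fits without 1 sample, log2 fold changes ranged from -0.26 to 0.13 for BCL2, -0.34 to 0.35 for CD14, -0.52 to 0.05 for COL1A1, -0.48 to 0.04 for EGR1, -0.25 to 0.28 for KIT, -0.57 to 0.83 for MESP1, -0.37 to 0.18 for PAX6 and -0.03 to 0.15 for PCNA. The cause was not tested. Depth is unknown.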
